A study of Homo sapiens with 8 samples.

Results

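The 9 genes described here encode enzymes that build phosphatidylcholine and phosphatidylethanolamine, namely CHKA, ETNK1, ETNK2, PCYT1A, PCYT1B, PCYT2, CHPT1, CEPT1 and PEMT. They are 9 of the 22465 genes that the array annotation names through a transcript cluster of their own, and each of the 9 had 1 such cluster. A transcript cluster is the set of probes that the array assigns to a single gene or locus. The list was chosen by the measured RWF minus vehicle difference of CHKA, to which enzymes of the same pathway were added by name, so that difference is described without a test. The other 8 enzymes were tested.

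Total RNA was measured on Affymetrix Human Transcriptome Arrays in 4 groups of 2 arrays each. WPMY-1 cells, a line of myofibroblasts from human prostate stroma, were given RWF (Rauwolfia vomitoria extract) at 250 μg/ml for 24 h or vehicle for 24 h. BPH1 cells, a line from epithelium of human benign prostatic hyperplasia, were given the same extract, dose and time or vehicle. Each line is a single immortalized line, and the 2 were grown in different media (DMEM for WPMY-1 and RPMI for BPH1, both with serum), so line and medium cannot be told apart in any comparison between them. No source states whether the 2 arrays of a group had separate cultures behind them, and the p-values below then cover array-to-array spread alone, possibly technical.

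Under vehicle, WPMY-1 cells exceeded BPH1 cells in 16 of 17 stromal markers on the array and fell below them in 15 of 16 epithelial markers, with median log2 differences (WPMY-1 minus BPH1) of 2.35 and -2.80 (limma, adjusted p under 0.05). After RWF, 4 of the 17 stromal markers were lower in WPMY-1 cells and 0 of 17 passed the test in BPH1 cells. Over all clusters 1.53% passed in WPMY-1 and 0.0400% in BPH1 cells, so 0 of 17 in BPH1 cells says little. The mean log2 value of the 17 stromal markers was 7.39 to 7.42 on WPMY-1 RWF arrays and 7.63 on both WPMY-1 vehicle arrays, and that of the 16 epithelial markers was 5.63 to 5.67 with RWF and 5.52 to 5.64 with vehicle. The part of these marker differences in the WPMY-1 results below was not tested. Across clusters, Pearson's r was 0.995 to 0.997 within a group, 0.990 to 0.996 between RWF and vehicle within a line, and 0.970 to 0.975 between lines.

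As background, cells make most phosphatidylcholine through the CDP-choline branch of the Kennedy pathway. Choline is first phosphorylated by a choline kinase, phosphocholine is then activated to CDP-choline by a cytidylyl transferase, and a phosphotransferase finally joins it to diacylglycerol. Ethanolamine kinases, another cytidylyl transferase and the same class of phosphotransferase make phosphatidylethanolamine in a parallel branch. PEMT joins the branches by methylating phosphatidylethanolamine to phosphatidylcholine, a route known mainly from liver. Choline kinase alpha has long been studied in cancers, prostate cancer among them, where phosphocholine is often raised.

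The values are the deposited log2 RMA values, and each difference below is a difference of log2 means, RWF minus vehicle or WPMY-1 minus BPH1. Probes differ in brightness, so levels were compared between groups for 1 gene and never between genes. The table has no detection call, and 439 clusters of olfactory receptor genes, which these lines are not known to express, served as a dim range with a median of 2.65 and a 95th percentile of 4.41. All 9 enzymes had 8-array means above 4.41. In WPMY-1 cells the means of PCYT1B lay within about 0.1 of that limit.

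**Figure D1:**
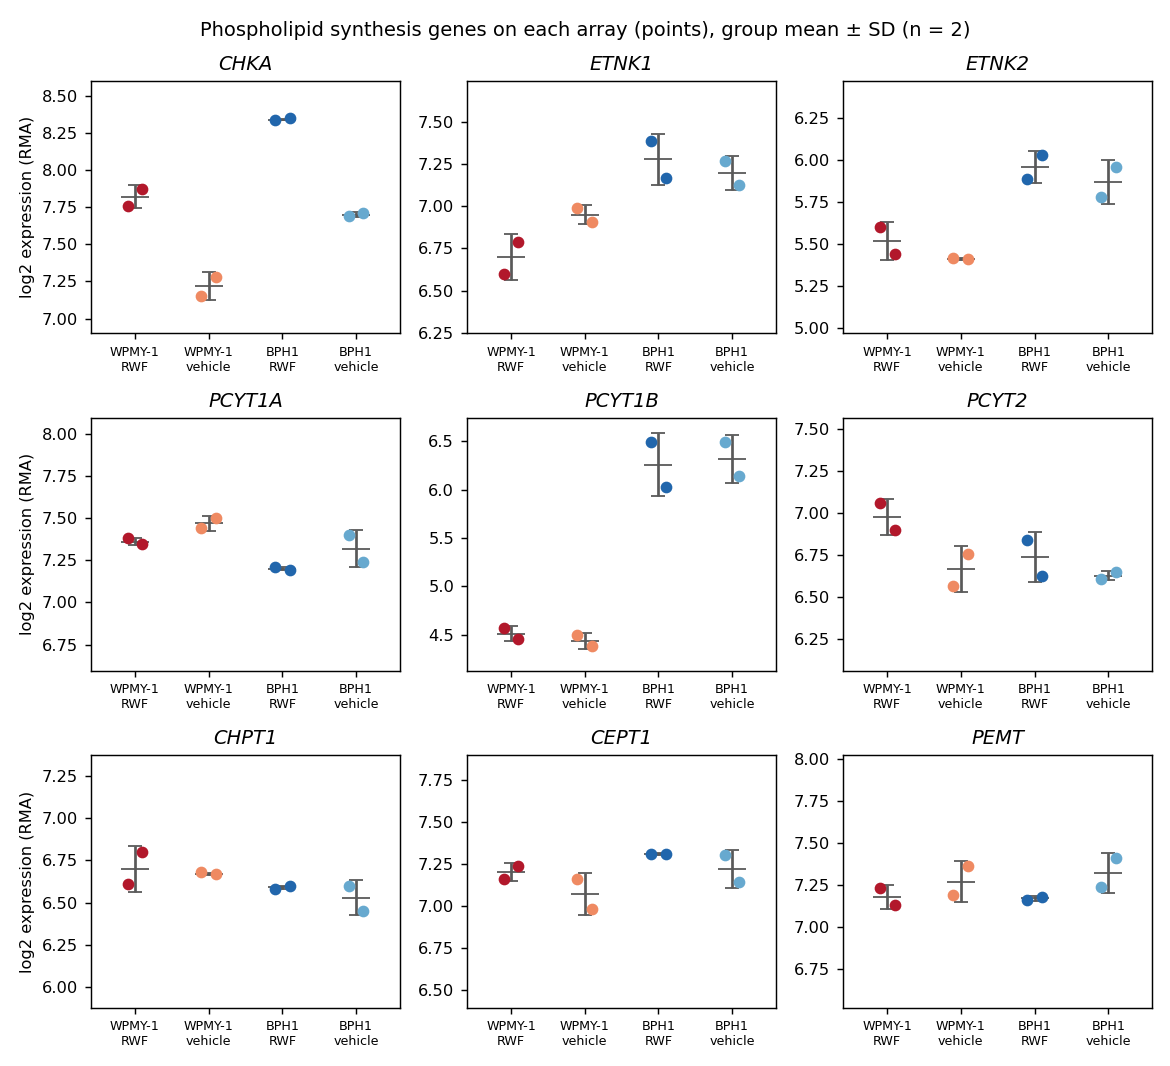
Deposited log2 values of the 9 enzymes on each of the 8 arrays (points), with the group mean and SD (grey bars, n = 2 arrays), for WPMY-1 RWF, WPMY-1 vehicle, BPH1 RWF and BPH1 vehicle. CHKA is higher on RWF arrays of both lines, and PCYT1B lies between 4.38 and 4.57 in WPMY-1 cells, against 6.03 to 6.49 in BPH1 cells.

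CHKA, choline kinase alpha, which starts the CDP-choline branch, was higher with RWF in both lines. In WPMY-1 cells it stood at 7.76 and 7.87 on the RWF arrays, against 7.15 and 7.28 on the vehicle arrays. In BPH1 cells CHKA stood at 8.34 and 8.35 on the RWF arrays, against 7.69 and 7.71 on the vehicle arrays. The RWF and vehicle arrays did not overlap in either line. The difference was 0.60 in WPMY-1 cells (SE 0.0823, 95% interval 0.42 to 0.79), or 1.52-fold. It was 0.64 in BPH1 cells (SE 0.0823, 95% interval 0.45 to 0.83), or 1.56-fold. These SEs and intervals describe the spread between arrays. They are not a test, because the list was chosen by this difference. Over all 67528 clusters, 6.19% had RWF arrays above the vehicle arrays without overlap in both lines, and 2.76% in WPMY-1 and 0.995% in BPH1 cells were at least 1.3-fold higher with RWF.

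The measured RWF differences of CHKA in the lines lay close together. The WPMY-1 difference minus the BPH1 difference was -0.036 (SE 0.12, 95% interval -0.30 to 0.23). This interval too is a description and not a test, and it is too wide to show that the differences were equal. The 4 group means came in the order BPH1 RWF (8.34), WPMY-1 RWF (7.82), BPH1 vehicle (7.70) and WPMY-1 vehicle (7.22). The neighbours in the middle, WPMY-1 RWF and BPH1 vehicle, differed by 0.12 with a gap of 0.05 between their nearest arrays, against an SD of 0.077 in the WPMY-1 RWF group. The other neighbours were 0.52 and 0.49 apart, with gaps of 0.467 and 0.411. CHKA in WPMY-1 cells with RWF was thus near its level in BPH1 cells with vehicle.

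CHKB, the beta isoform of choline kinase, had values of 5.93 and 5.90 with RWF in WPMY-1 cells, against 5.84 and 5.90 with vehicle. BPH1 cells had CHKB at 5.88 and 5.94 with RWF, against 5.84 and 5.95 with vehicle. Its RWF difference was 0.045 in WPMY-1 (adjusted p = 0.786) and 0.014 in BPH1 cells (adjusted p = 1), with upper 95% limits of 0.23 and 0.20. Whether the isoforms differed in their RWF response was not tested.

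None of the other 8 enzymes passed the test for RWF in either line (limma, adjusted p under 0.05), where 1.53% of all clusters passed in WPMY-1 cells and 0.0400% in BPH1 cells. At an unadjusted p under 0.05 there were 2 of 8 in WPMY-1 and 0 of 8 in BPH1 cells, against 19.0% and 5.83% of all clusters. The test named in the study's methods called 0 of all 67528 clusters in either line after adjustment and so gives no information on the 8. The median RWF difference of the 8 was 0.051 in WPMY-1 and 0.074 in BPH1 cells, against 0.0379 and -0.00814 over all clusters. The 95% intervals of the 8 reached at most from 0.708-fold to 1.47-fold in WPMY-1 cells and from 0.741-fold to 1.27-fold in BPH1 cells.

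**Figure D2:**
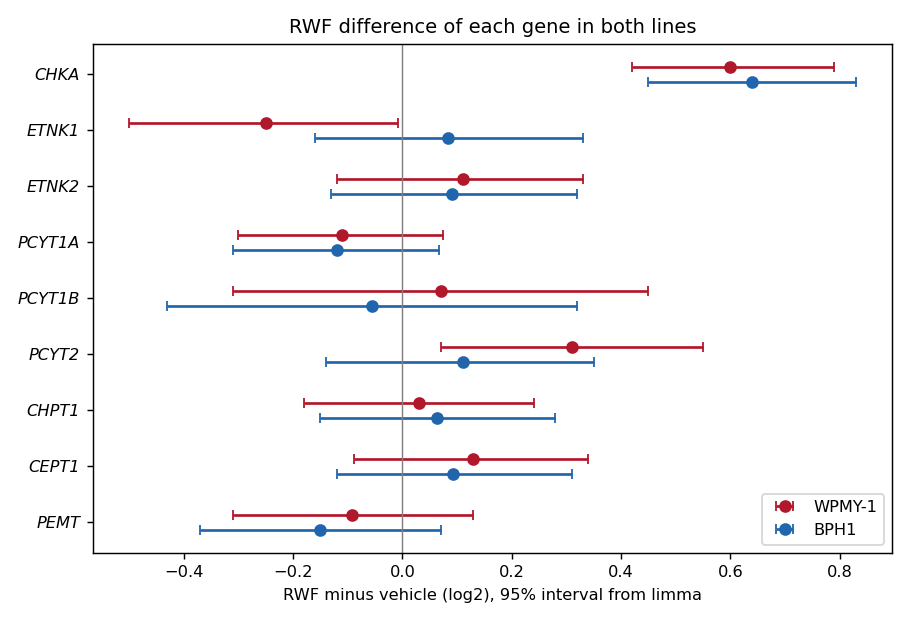
RWF minus vehicle (log2) of the 9 enzymes in WPMY-1 cells (red, upper point of each pair) and BPH1 cells (blue), with 95% intervals from limma over 8 arrays. CHKA lies at 0.60 and 0.64, and the others lie between -0.25 and 0.31. The intervals of CHKA are a description and not a test, because the list was chosen by its RWF difference.

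The ethanolamine kinases ETNK1 and ETNK2 phosphorylate ethanolamine, the first step of the parallel branch. ETNK1 had values of 6.60 and 6.79 with RWF in WPMY-1 cells, against 6.99 and 6.91 with vehicle, and these arrays did not overlap. In BPH1 cells ETNK1 had 7.39 and 7.17 with RWF, against 7.27 and 7.13 with vehicle, which overlapped. The RWF difference of ETNK1 was -0.25 in WPMY-1 cells (SE 0.11, unadjusted p = 0.0445, adjusted p = 0.251, limma) and 0.083 in BPH1 cells (adjusted p = 1). The difference between those differences was -0.34 (95% interval -0.68 to 0.01, adjusted p = 0.589, limma), and 0.00592% of all clusters passed that test. ETNK1 was thus the enzyme whose RWF differences were farthest apart between the lines, without passing the test.

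ETNK2 had values of 5.60 and 5.44 with RWF in WPMY-1 cells, against 5.42 and 5.41 with vehicle. In BPH1 cells ETNK2 had 5.89 and 6.03 with RWF, against 5.78 and 5.96 with vehicle. Its RWF differences of 0.11 and 0.091 (adjusted p = 0.581 and 1, limma) did not pass the test. The arrays did not overlap in WPMY-1 cells and overlapped in BPH1 cells.

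PCYT1A and PCYT1B, the alpha and beta cytidylyl transferases that make CDP-choline, catalyse the step held to limit the rate of the branch. PCYT1A had values of 7.38 and 7.35 with RWF in WPMY-1 cells, against 7.44 and 7.50 with vehicle. In BPH1 cells PCYT1A had 7.21 and 7.19 with RWF, against 7.40 and 7.24 with vehicle. It was the only one of the 8 whose RWF arrays lay on the same side of the vehicle arrays in both lines without overlap, as did 12.0% of all clusters. It lay below them, as did 5.78%. The differences were small, -0.11 in WPMY-1 (adjusted p = 0.476) and -0.12 in BPH1 cells (adjusted p = 1), and their average was -0.12 (SE 0.0577, adjusted p = 0.38, limma).

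PCYT1B had values of 4.57 and 4.46 with RWF in WPMY-1 cells, against 4.50 and 4.38 with vehicle. In BPH1 cells PCYT1B had 6.49 and 6.03 with RWF, against 6.49 and 6.14 with vehicle. The arrays overlapped in both lines, and the BPH1 groups had the widest spread of any of the 9 enzymes, with SDs of 0.329 with RWF and 0.251 with vehicle. Its RWF differences of 0.071 and -0.055 (SE 0.16 each) had 95% intervals of -0.31 to 0.45 in WPMY-1 and -0.43 to 0.32 in BPH1 cells.

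PCYT2 makes CDP-ethanolamine, the step of the ethanolamine branch that corresponds to PCYT1A. It had 7.06 and 6.90 with RWF in WPMY-1 cells, against 6.57 and 6.76 with vehicle, without overlap. In BPH1 cells PCYT2 had 6.84 and 6.63 with RWF, against 6.61 and 6.65 with vehicle, with overlap. The RWF difference was 0.31 in WPMY-1 cells (SE 0.11, 95% interval 0.07 to 0.55, unadjusted p = 0.0177, adjusted p = 0.176, limma) and 0.11 in BPH1 cells (95% interval -0.14 to 0.35, adjusted p = 1). Averaged over both lines it was 0.21 (SE 0.0749, unadjusted p = 0.0227, adjusted p = 0.236, limma), or 1.16-fold. PCYT2 had the lowest unadjusted p of the 8 in WPMY-1 cells and on average, and it did not pass the test in either, where 1.53% and 1.24% of all clusters did. The average called 0 of the 8 and had 1 at an unadjusted p under 0.05, against 15.5% of all clusters.

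CHPT1 joins CDP-choline to diacylglycerol, and CEPT1 uses both CDP-choline and CDP-ethanolamine. CHPT1 had values of 6.61 and 6.80 with RWF in WPMY-1 cells, against 6.68 and 6.67 with vehicle. In BPH1 cells CHPT1 had 6.58 and 6.60 with RWF, against 6.60 and 6.45 with vehicle. Both pairs of groups overlapped, with RWF differences of 0.031 in WPMY-1 and 0.064 in BPH1 cells (adjusted p = 0.879 and 1, limma).

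CEPT1 had values of 7.16 and 7.24 with RWF in WPMY-1 cells, against 7.16 and 6.98 with vehicle. In BPH1 cells CEPT1 had 7.31 on both RWF arrays, against 7.30 and 7.14 with vehicle. Its RWF differences were 0.13 in WPMY-1 and 0.093 in BPH1 cells (adjusted p = 0.484 and 1, limma), and neither passed the test. The arrays overlapped in WPMY-1 cells and did not in BPH1 cells.

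PEMT had values of 7.23 and 7.13 with RWF in WPMY-1 cells, against 7.19 and 7.36 with vehicle. In BPH1 cells PEMT had 7.16 and 7.18 with RWF, against 7.24 and 7.41 with vehicle. The BPH1 arrays did not overlap, and the difference there was -0.15 (SE 0.0957, unadjusted p = 0.159, adjusted p = 0.996, limma). In WPMY-1 cells it was -0.093 (adjusted p = 0.618).

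Arrays without overlap were common in this design and say little by themselves. Among the 8 enzymes, 4 in WPMY-1 (PCYT2 and ETNK2 higher, PCYT1A and ETNK1 lower) and 3 in BPH1 cells (CEPT1 higher, PCYT1A and PEMT lower) had RWF and vehicle arrays without overlap, against 50.6% and 34.4% of all clusters.

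The comparison between the vehicle-treated lines did not itself choose the list, and all 9 enzymes were tested in it. The vehicle arrays of CHKA also entered the RWF difference that chose the list. The p of CHKA between the lines is thus not independent of that choice. With vehicle, 3 of the 9 enzymes differed between the lines (limma, adjusted p under 0.05), CHKA, PCYT1B and ETNK2, and all 3 were lower in WPMY-1 than in BPH1 cells. Over all clusters 16.6% differed, 8.82% in that direction, and over the brightest clusters of named genes 25.2% differed. The test named in the study's methods called 0 of the 9 after adjustment, and 0.00889% of all clusters.

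PCYT1B showed the largest difference between the lines of the 9. Its vehicle arrays stood at 4.50 and 4.38 in WPMY-1 cells, against 6.49 and 6.14 in BPH1 cells. The difference was -1.87 (SE 0.16, 95% interval -2.25 to -1.50, adjusted p = 0.000107, limma), or 3.67-fold lower in WPMY-1 cells. The WPMY-1 mean of 4.44 lay next to the dim limit of 4.41, and the part of background in it was not tested.

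CHKA stood at 7.15 and 7.28 in vehicle-treated WPMY-1 cells, against 7.69 and 7.71 in vehicle-treated BPH1 cells. The difference of -0.49 (SE 0.0823, adjusted p = 0.00392, limma) made it 1.40-fold lower in WPMY-1 cells. ETNK2 stood at 5.42 and 5.41 in WPMY-1 cells, against 5.78 and 5.96 in BPH1 cells, a difference of -0.46 (SE 0.0987, adjusted p = 0.0138, limma), or 1.37-fold lower. The call for ETNK2 was lost without the second BPH1 vehicle array (difference -0.36, adjusted p = 0.109) and without the first or the second WPMY-1 vehicle array (adjusted p = 0.0553 and 0.0551).

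ETNK1 was also lower in WPMY-1 cells, at 6.99 and 6.91, against 7.27 and 7.13 in BPH1 cells, and its difference of -0.25 did not pass (unadjusted p = 0.0489, adjusted p = 0.181, limma). The remaining 5 enzymes lay between -0.15 for CEPT1 and 0.15 for PCYT1A, with adjusted p from 0.284 to 0.885. The median over the 9 was -0.15, against -0.012 over all clusters.

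**Figure D3:**
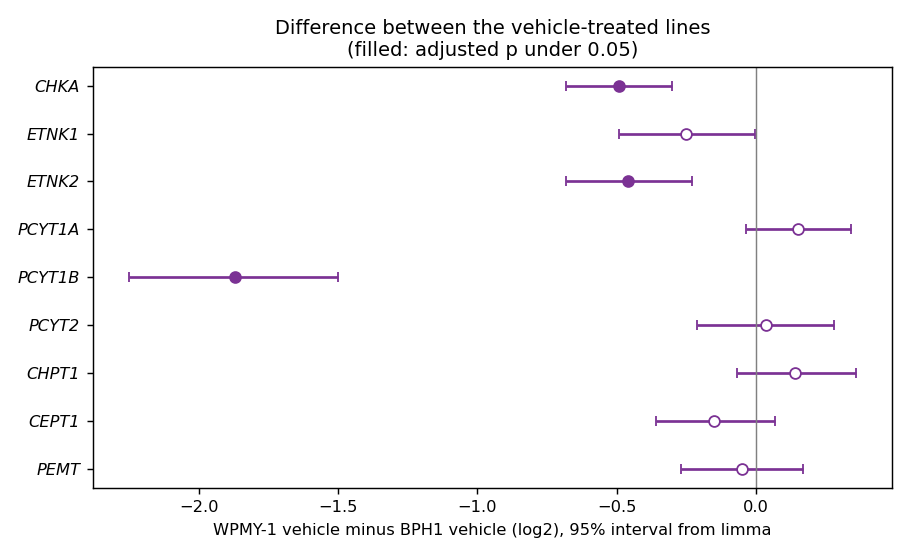
Vehicle-treated WPMY-1 minus vehicle-treated BPH1 cells (log2) for the 9 enzymes, with 95% intervals from limma and filled points where the adjusted p was under 0.05. PCYT1B at -1.87, CHKA at -0.49 and ETNK2 at -0.46 are the 3 filled points, all lower in WPMY-1 cells.

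Promoter windows of RefSeq (assembly GRCh38.p14), each running 250 bases before to 50 bases after a transcript start, were matched by gene symbol for 8 of the 9 enzymes and not for CHKA. The 250 bases before the start are printed for PCYT1B and ETNK2, the genes with a window whose levels differed between the lines. Both lie on the minus strand of their chromosomes and are written in the direction of the gene, in lower case, with every match to GGGCGG on either strand (the GC box) in capitals. PCYT1B has 2 annotated starts, with the printed bases before them at chrX:24672888-24673137 and chrX:24647348-24647597. ETNK2 has 1, with the printed bases before it at chr1:204152045-204152294.
PCYT1B first start: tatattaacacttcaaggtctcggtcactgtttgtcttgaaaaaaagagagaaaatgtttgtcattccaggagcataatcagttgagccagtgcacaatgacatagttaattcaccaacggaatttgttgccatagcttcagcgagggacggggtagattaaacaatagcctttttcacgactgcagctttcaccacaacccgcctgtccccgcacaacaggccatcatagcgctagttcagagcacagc
PCYT1B second start: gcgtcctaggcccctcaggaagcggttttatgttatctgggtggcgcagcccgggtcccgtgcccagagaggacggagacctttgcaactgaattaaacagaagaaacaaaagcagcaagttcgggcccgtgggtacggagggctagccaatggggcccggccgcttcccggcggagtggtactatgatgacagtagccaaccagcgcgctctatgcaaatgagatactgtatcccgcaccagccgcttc
ETNK2: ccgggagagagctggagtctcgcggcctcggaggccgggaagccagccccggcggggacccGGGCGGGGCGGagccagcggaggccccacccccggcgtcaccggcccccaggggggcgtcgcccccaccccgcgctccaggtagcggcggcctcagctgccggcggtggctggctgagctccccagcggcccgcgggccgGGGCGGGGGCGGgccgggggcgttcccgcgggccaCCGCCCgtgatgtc
The 300-base windows of PCYT1B had GC contents of 45.7% and 56.7% and no match to GGGCGG, whereas that of ETNK2 had a GC content of 83.7%, at percentile 99.5 of all windows, and 6 matches, 5 of them in the printed part. The median of all 35116 windows was 58.7%.

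GGGCGG was found on either strand in a window of 6 of the 8 enzymes, all but PCYT1A and PCYT1B, and in 45% of all windows. TGATGNAA, the core of the element bound by C/EBP and ATF factors, was found for 1 of the 8 (PCYT1A) and in 3.62% of windows. CACGTG, the E-box, was found for 1 of the 8 (PEMT) and in 7.26% of windows, and TCACNCCAC, a sterol regulatory core, for 0 of the 8 and in 1.13% of windows. CEPT1, PEMT, PCYT2 and PCYT1B have more than 1 window, so a gene count and a share of windows are not the same measure. These are matches of letters and describe the windows only.

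Around the 9 enzymes, 84 of 90 other genes of phospholipid metabolism in 10 lists were measured. In WPMY-1 cells 3 of the 84 passed the test for RWF, LPIN2 and PITPNC1 higher and AGPAT5 lower, or 3.57%, against 1.53% of all clusters and 1.99% of named genes. In BPH1 cells 0 of 84 passed. At an unadjusted p under 0.05 there were 22 of 84 in WPMY-1 cells and 10 of 84 in BPH1 cells. The shares were 19.0% and 5.83% over all clusters, and 25.8% and 7.85% in a fit with 1 cluster per named gene. The median RWF difference of the 84 was 0.075 in WPMY-1 and 0.016 in BPH1 cells.

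LPIN2, a phosphatidate phosphatase that makes the diacylglycerol used by CHPT1 and CEPT1, had values of 7.50 and 7.48 with RWF in WPMY-1 cells, against 6.88 and 6.89 with vehicle. Its difference there was 0.60 (SE 0.0735, adjusted p = 0.0104, limma), or 1.52-fold. In BPH1 cells LPIN2 had 6.01 and 6.04 with RWF, against 5.71 and 5.79 with vehicle, a difference of 0.27 (adjusted p = 0.483). LPIN2 was higher on every RWF array of each line, and its average over the lines was 0.44 (SE 0.052, adjusted p = 0.0101, limma), a call lost without the first BPH1 vehicle array (adjusted p = 0.0627).

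AGPAT5, an acyltransferase that makes phosphatidic acid, had 7.90 and 8.02 with RWF in WPMY-1 cells, against 8.49 and 8.46 with vehicle. The difference was -0.52 (SE 0.0881, adjusted p = 0.0347, limma). In BPH1 cells it was -0.10 (adjusted p = 1). PITPNC1, a lipid transfer protein of the phosphatidylinositol transfer family, had 6.25 and 6.35 with RWF in WPMY-1 cells, against 5.46 and 5.60 with vehicle.

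The difference of PITPNC1 was 0.77 in WPMY-1 (SE 0.0965, adjusted p = 0.0116, limma), or 1.71-fold, and -0.32 in BPH1 cells (adjusted p = 0.582), where it had 7.01 and 6.85 with RWF, against 7.31 and 7.18 with vehicle. The difference between the lines' RWF differences was 1.09 (SE 0.14, adjusted p = 0.109, limma), which did not pass. Each of these 3 calls was lost without either WPMY-1 RWF array or without the first WPMY-1 vehicle array, with adjusted p from 0.0564 to 0.165, and that of AGPAT5 also without any other array. With WPMY-1 cells fitted alone the calls of LPIN2 and AGPAT5 were lost (adjusted p = 0.0654 and 0.1, limma).

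Averaged over both lines 3 of the 84 passed, all higher with RWF, or 3.57%, against 1.24% of all clusters. Besides LPIN2 they were GPAT3, which acylates glycerol phosphate, with 0.43 (adjusted p = 0.0302, limma), and PNPLA8, a calcium-independent phospholipase, with 0.48 (adjusted p = 0.0361, limma). GPAT3 and PNPLA8 were named after their values were seen. GPAT3 had 5.69 and 5.67 with RWF in WPMY-1 cells, against 5.08 and 5.34 with vehicle. In BPH1 cells GPAT3 had 7.37 and 7.34 with RWF, against 7.01 and 6.89 with vehicle. The average call of GPAT3 held without 1 of the 8 arrays (the second WPMY-1 vehicle array) and was lost without each of the other 7.

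PNPLA8 had 7.41 and 7.39 with RWF in WPMY-1 cells, against 6.90 and 6.73 with vehicle. In BPH1 cells PNPLA8 had 6.39 and 6.09 with RWF, against 5.79 and 5.95 with vehicle, again without overlap. Its average call also held without 1 array, the second BPH1 RWF array, and was lost without each of the other 7.

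By list, the diacylglycerol backbone genes held 2 of 15 RWF calls in WPMY-1 cells (LPIN2 and AGPAT5, in opposite directions) and the phospholipid transfer proteins 1 of 6 (PITPNC1). The other 8 lists held 0 calls in WPMY-1 cells. Among them were choline and ethanolamine carriers (9 genes, median 0.052) and phosphatidylserine synthesis and decarboxylation (3 genes, median 0.014). Another held further enzymes in or around the Kennedy pathway, CHKB, SELENOI, PHOSPHO1 and SGPL1 (4 genes, median 0.091). The rest were the CDP-diacylglycerol branch (7 genes, median 0.056), acyl chain remodelling (9 genes, median -0.011), phospholipid breakdown (16 genes, median 0.13), choline oxidation and methyl supply (8 genes, median 0.077) and sphingomyelin (7 genes, median 0.23). SELENOI, which makes phosphatidylethanolamine from CDP-ethanolamine, had an RWF difference of 0.12 in WPMY-1 and -0.037 in BPH1 cells (adjusted p = 0.605 and 1, limma).

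**Figure D4:**
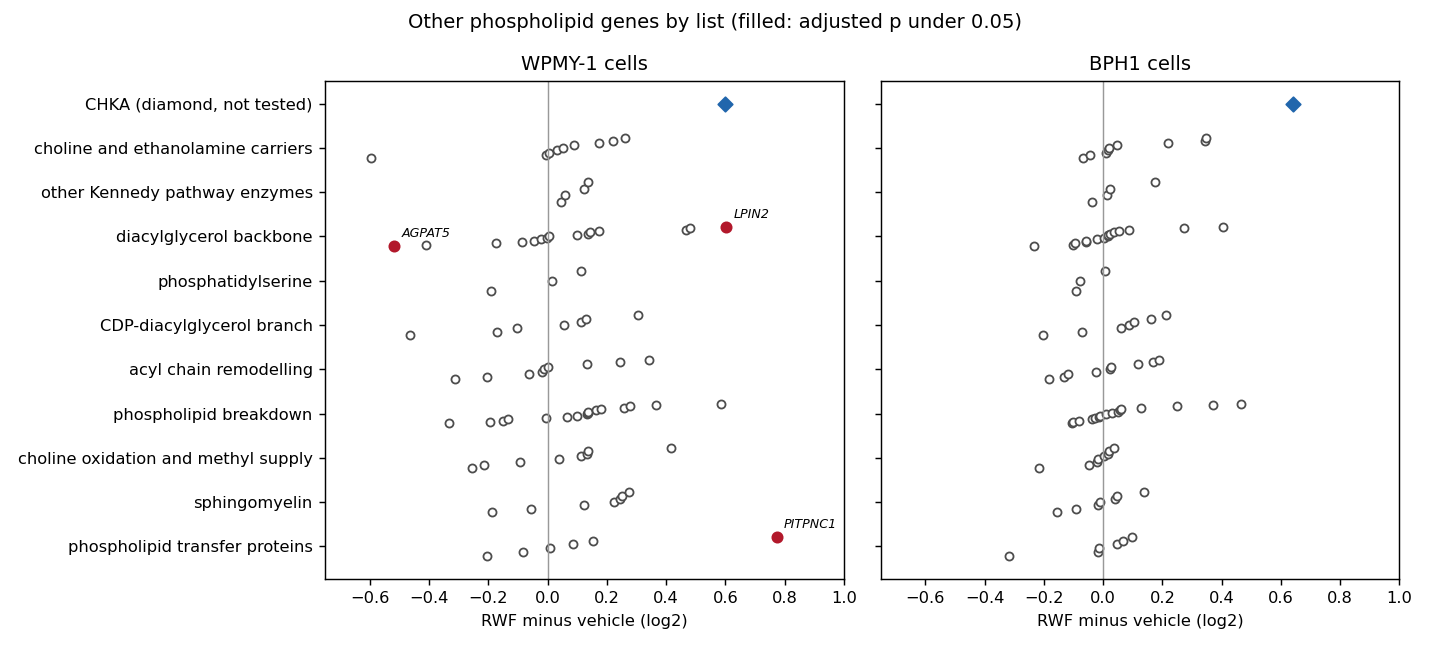
RWF minus vehicle (log2) of the 84 other phospholipid genes by list in WPMY-1 cells (left) and BPH1 cells (right), 1 point per gene, filled and named where the adjusted p was under 0.05, with CHKA as a diamond. LPIN2, PITPNC1 and AGPAT5 are filled in WPMY-1 cells, and 0 genes are filled in BPH1 cells.

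Between the vehicle-treated lines, 34 of the 84 genes differed, 12 higher and 22 lower in WPMY-1 cells, or 40.5%, against 16.6% of all clusters and 25.2% of named genes. The acyl chain remodelling genes held 7 calls of 9, 6 of them lower in WPMY-1 cells. MBOAT1, an acyltransferase of lysophospholipids, had 5.75 and 5.78 in WPMY-1 cells, against 8.49 and 8.74 in BPH1 cells, or 7.19-fold lower (adjusted p = 9.33e-07, limma). LPCAT3, which reacylates lysophosphatidylcholine, was 1.97-fold lower (adjusted p = 0.00019, limma), and MBOAT7, which acylates lysophosphatidylinositol, was 1.74-fold higher (adjusted p = 0.00156, limma).

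CDS1, which turns phosphatidic acid into CDP-diacylglycerol, had 3.86 and 3.85 in WPMY-1 cells, against 7.51 and 7.21 in BPH1 cells. Its WPMY-1 values lay below the dim limit of 4.41. With the limit in place of the WPMY-1 mean, CDS1 was 7.74-fold lower in WPMY-1 cells (adjusted p = 5.34e-07, limma on measured values). That fold rests on the BPH1 mean and makes no allowance for the spread between arrays. Of the carriers, SLC44A3, a member of the choline transporter-like family, had 4.22 and 4.27 in WPMY-1 cells, also below 4.41. It had 5.62 and 5.69 in BPH1 cells, and was 2.37-fold lower in WPMY-1 cells by the same measure (adjusted p = 6.69e-05, limma). FLVCR2 was the other carrier that passed, 1.18-fold lower in WPMY-1 cells by the same measure (adjusted p = 0.0195, limma). Its WPMY-1 values of 4.18 and 4.23 lay in the dim range, against 4.62 and 4.66 in BPH1 cells. The call for FLVCR2 was lost when any vehicle array was left out, with differences of -0.46 to -0.42.

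The genes higher in vehicle-treated WPMY-1 cells included SMPD1, the acid sphingomyelinase, with 7.66 and 8.09 in WPMY-1 cells, against 6.23 and 6.59 in BPH1 cells (2.76-fold, adjusted p = 0.000357, limma). SGMS2, a sphingomyelin synthase that draws on phosphatidylcholine, was 1.97-fold higher (adjusted p = 0.00026, limma), and LPIN2 2.20-fold higher (adjusted p = 1.84e-05, limma). Among the 22 genes lower in WPMY-1 cells (against 12 higher), GPAT3 was 3.34-fold lower (adjusted p = 9.58e-06, limma). PITPNC1 was 3.30-fold lower (adjusted p = 8.63e-06, limma). Further genes called between the lines are not given here. CHKB and SELENOI had line differences of -0.024 and 0.12 that did not pass (adjusted p = 0.898 and 0.599, limma).

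The genes whose values followed CHKA most closely over the 8 arrays, after each line's mean was taken off, were ELF1 (Pearson r = 0.9925), IRS2 (0.99), VPS41 (0.9888), BUD31 (0.988) and TSC1 (0.9873). They came from 11232 genes at or above the median level, of which 62 had an r above 0.95. With the lines' means removed the 8 points hold mainly the split between RWF and vehicle, so r is a description of that split. IRS2, an adaptor of the insulin receptor, had 6.27 and 6.31 with RWF in WPMY-1 cells, against 5.78 and 5.94 with vehicle. In BPH1 cells IRS2 had 5.72 and 5.79 with RWF, against 5.21 and 5.20 with vehicle. ELF1, an ETS-family transcription factor, had 7.87 and 7.99 with RWF in WPMY-1 cells, against 7.58 and 7.61 with vehicle, and in BPH1 cells 8.61 and 8.66 with RWF, against 8.30 and 8.28 with vehicle.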

How the data were processed

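The deposited table holds log2 expression values of 8 arrays, with a row for each transcript cluster. Its making is credited to RMA (version not named) in the submitters' processing notes. RMA corrects background, normalizes arrays to each other and summarizes probes, so a shift shared by all genes is partly removed. Software, library file and genome build are not given in the sources used here. The values were used as deposited, with 67528 clusters, of which 23781 carry 1 gene symbol in the platform annotation, 1543 several and 42204 none. A gene was read from its brightest cluster with that symbol alone.

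Differences were tested with limma 3.58.1 in R 4.3.3, two-sided, with all 8 arrays as 4 groups, 4 residual and 4.34 prior degrees of freedom, and Benjamini-Hochberg adjustment over all clusters at 0.05. The median residual SD was 0.0949 in WPMY-1 and 0.0828 in BPH1. The fit was run on simulated data with known changes and checked only for returning their mean size, not for how many it called. The number of arrays limits the precision. The members and lists were chosen with earlier results of these data known. Genes eligible to be named were the 9 members, the 5 genes most like CHKA, and called genes of each list. The last were up to 4 of smallest p per direction and comparison (within each line and between lines). Of those from the comparison between lines, only some are given. Lists were matched to 84 of 90 genes by symbol or RefSeq synonym. Alternatives were median centring, quantile normalization, a block for the replicate number, a filter that kept the 33764 brighter clusters, a variance trend, robust variances, separate fits for the lines, 1 cluster per gene, averages over a gene's clusters, the methods' t-test, and leaving out every array once. Python 3.11.15 with matplotlib 3.10.9 drew the figures.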

Additional observations from a re-analysis of the deposited data

How the results depend on the processing

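With 2 arrays a group, the precision is low, and 8 member differences near 0 changed sign under 1 or both of the other scalings. Centring moves all clusters of an array by 1 amount, so values near 0 turn by its construction. Under median centring they were CHPT1 with RWF in WPMY-1 cells (-0.0242), PCYT1B averaged over the lines (-0.0171), the WPMY-1 minus BPH1 RWF differences of PCYT1A (-0.0532), CEPT1 (-0.0266), PEMT (-0.00617) and ETNK2 (-0.0465), and PEMT between the vehicle-treated lines (0.000759). Under quantile normalization they were PCYT1B averaged (-0.0189) and the WPMY-1 minus BPH1 RWF differences of CHKA (0.00969) and ETNK2 (-0.0337). The cause under quantile normalization was not tested.

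Leaving out 1 array also turned differences near 0, and the remaining array of its group was assumed to vary like the other groups. The ranges for RWF in WPMY-1 were -0.0655 to 0.13 (CHPT1). For RWF in BPH1 they were -0.29 to 0.18 (PCYT1B), -0.00813 to 0.14 (CHPT1), -0.0229 to 0.19 (ETNK1) and -0.00191 to 0.18 (ETNK2). Averaged over the lines they were -0.11 to 0.12 (PCYT1B) and -0.000686 to 0.0961 (CHPT1). For the WPMY-1 minus BPH1 RWF difference they were -0.10 to 0.03 (CHKA), -0.0689 to 0.0845 (PCYT1A), -0.11 to 0.36 (PCYT1B), -0.13 to 0.0638 (CHPT1), -0.0549 to 0.12 (CEPT1), -0.0317 to 0.14 (PEMT) and -0.0789 to 0.11 (ETNK2). Between the vehicle-treated lines they were -0.0597 to 0.13 (PCYT2) and -0.14 to 0.0374 (PEMT). The RWF difference of CHKA ranged over 0.54 to 0.67 in WPMY-1 and 0.63 to 0.65 in BPH1 cells.

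The count of members called for RWF was 0 under every alternative run, among them the methods' t-test, which called 0 of all clusters in either line. Between the vehicle-treated lines it was 3, with 2 to 3 when 1 array was left out and 0 by the methods' t-test. Of the other pathway genes, the 3 called for RWF in WPMY-1 cells became 9 without dim clusters, 9 with 1 cluster per gene, 9 with averaged clusters of a gene, 1 with each line alone, 0 by the methods' t-test and 0 to 3 without 1 array. The 3 called on average became 6 with 1 cluster per gene and 6 with averaged clusters of a gene, and 0 to 2 without 1 array. The 0 called for the difference between the lines' RWF differences became 1 and 1 under those settings. Calls over everything tested rose as well. In WPMY-1 cells they went from 1.53% to 5.49% without dim clusters, 6.01% with 1 cluster per gene and 6.08% with averaged clusters. On average they went from 1.24% to 5.48% and 5.47% with 1 cluster per gene and averaged clusters. For the difference between the lines' RWF differences they went from 0.00592% to 0.111% under both. In BPH1 cells the share called was 0.228% or less under every alternative, so the 0 members called there say little. The 34 called between the vehicle-treated lines became 0 by the methods' t-test (6 of all clusters) and 22 to 35 without 1 array, with 22 without the second BPH1 vehicle array.

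The labels do not say that replicate numbers pair the arrays, and the deviations of same-numbered RWF and vehicle arrays correlated at -0.0256 in WPMY-1 and 0.125 in BPH1 cells, and those of the vehicle arrays of both lines at 0.27. With the replicate block, 5 other pathway genes were called for RWF in WPMY-1 cells in place of 3, and the counts of members called were 0 for RWF and 3 between the lines, as without it.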
